A study of Mus musculus with 6 samples.

Results

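The genes of oxidative phosphorylation, the route by which mitochondria make ATP, were compared between mouse small intestinal organoids cultured with MMK-1 and with vehicle. They were taken from the deposited table as every gene whose KEGG annotation lists the oxidative phosphorylation pathway, together with the 13 protein-coding genes of the mitochondrial genome. This gave 127 of the 21397 genes in the table, 13 of them mitochondrially encoded and 114 nuclear. The nuclear members comprise 38 genes of complex I, 4 of complex II, 9 of complex III, 17 of complex IV, 15 of complex V, 20 of the V-ATPase and 11 others. The rule that picks them uses the annotation and gene names, not measured values.

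Organoids grown from crypts of Fpr2f/f mice (C57BL/6J) were cultured for 5 days with MMK-1, a peptide made to activate the receptor FPR2, at 1 μmol/L, or with 0.1% DMSO as vehicle. Both groups carry the floxed Fpr2 allele, and no Cre driver is named for these organoids. There were 3 libraries in each group, and each sample is stated to hold organoids of 3 mice. Nothing says whether libraries share mice, so the p-values describe the spread between these libraries. The treatment label gives MMK-1 as 1 mmol/L, whereas the protocol text and the methods give 1 μmol/L, which is used here.

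Levels are FPKM, which scale the fragments counted on a gene to its length and to the library total, so levels of different genes can be compared. The totals were 35512739 to 37537463 fragments. The epithelial gene Epcam was at 392 ± 1.79 FPKM in the controls and 391 ± 20.9 FPKM with MMK-1 (SD, n = 3). The 8 listed epithelial markers summed to 3444 to 3475 FPKM in the controls and 2505 to 2709 FPKM with MMK-1, with 4 higher and 3 lower. By contrast, 7 listed stromal and endothelial markers summed to at most 0.383 FPKM in any library and 9 immune markers to 6.27 to 6.74 FPKM in the controls and 2.48 to 3.32 FPKM with MMK-1. Markers of cell types differed between the groups. In the limma test 14 of 16 enterocyte markers were lower and 12 of 12 stem cell markers were higher with MMK-1. Of all genes tested, 24.7% were lower and 48.5% higher. Summed enterocyte markers were at 14284 to 14485 FPKM in the controls and 10178 to 10949 FPKM with MMK-1, and summed stem cell markers at 104 to 106.5 against 467 to 493 FPKM. In bulk RNA, fewer cells of a type and less RNA per cell cannot be told apart, and the part of these markers' cells in the results was not tested. The MMK-1 library of replicate 3 stood apart from the other MMK-1 libraries in genes of low GC content. Over the 945 tested nuclear genes whose GC content lay within that of the mitochondrial genes, the mean log2 level of MMK-1 replicates 1 and 2 exceeded that of replicate 3 by a median of 0.25, against -0.10 over the 5015 genes with a GC content of at least 50%.

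Oxidative phosphorylation runs in the inner mitochondrial membrane. Complexes I and II pass electrons from NADH and succinate to coenzyme Q, complex III passes them on to cytochrome c, and complex IV hands them to oxygen. Complexes I, III and IV pump protons, and complex V, the ATP synthase, uses the return flow to make ATP. The mitochondrial genome encodes core subunits of every complex except complex II, and its mRNAs are cut from long transcripts that span nearly the whole circle. All other subunits are encoded in the nucleus. The KEGG pathway also holds the V-ATPase, a proton pump of lysosomes, endosomes and the plasma membrane that consumes ATP. In the intestine, absorptive enterocytes and dividing crypt cells both draw on mitochondrial ATP.

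A stretch of chromosome 1, chr1:24611535-24616197 on the minus strand of GRCm38, carries pseudogenes that copy part of the mitochondrial genome, and they bear on which members could be counted. COX2, ATP6, COX3 and ND4L match their pseudogenes Gm28661, Gm10925, Gm28437 and Gm10222 without a difference over 99% to 99.9% of their length, and ND3 differs from Gm28438 by 1 base (T3C, counted from the first base of the gene). ND4 is identical to Gm28439 over its first 63.6%, and the last 31.3% of COX1 differs from Gm29216 by 1 base (A1066T). ATP8 starts in the 230 bases between COX2 and ATP6, where a gap of 233 bases lies between the pseudogenes, and its last 43 bases lie within ATP6, in the stretch identical to Gm10925. No pseudogene of this stretch matches ND1, ND2, ND5, ND6 or CYTB. Matching parts of the GENCODE vM21 sequences are shown because they let a reader see how little separates the members from their copies. The capital marks the differing base.
COX1, chrM:6390-6453: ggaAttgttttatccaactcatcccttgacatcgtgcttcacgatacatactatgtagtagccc
Gm29216, chr1:24616125-24616188: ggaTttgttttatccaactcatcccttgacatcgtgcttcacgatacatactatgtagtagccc
ND3, chrM:9459-9521: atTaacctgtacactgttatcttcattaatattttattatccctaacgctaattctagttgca
Gm28438, chr1:24613057-24613119: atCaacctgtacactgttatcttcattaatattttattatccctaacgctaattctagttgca
COX3, chrM:8968-9088: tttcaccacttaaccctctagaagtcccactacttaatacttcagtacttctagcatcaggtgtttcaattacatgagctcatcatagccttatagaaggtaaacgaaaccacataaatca
Gm28437, chr1:24613490-24613610: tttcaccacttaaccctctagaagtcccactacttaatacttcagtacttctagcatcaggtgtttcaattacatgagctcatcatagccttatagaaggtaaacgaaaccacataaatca
The COX3 stretch has no capital because its copy is the same in every base. A fragment from such a stretch cannot be placed by its sequence, and how the authors' counting treated fragments with more than 1 placement is not given in the sources used here. The 5 genes copied over their whole length lay between 32.7 and 557 FPKM in all libraries, whereas ND1, ND2, ND5 and CYTB, with no listed copy, lay between 3398 and 13336 FPKM. Low levels were not limited to copied genes: ND6, also without a listed copy, lay between 1.39 and 7.22 FPKM. ATP8, whose last 43 bases are copied, lay between 18.9 and 99.9 FPKM. Whether the gap of 233 bases matches the rest of ATP8 was not tested. Levels of the copied genes are uncertain because of the shared sequence.

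Of the 127 members, 119 reached the mean of 1 FPKM needed for the test. MMK-1 raised 31 and lowered 31 of them in the limma test, where a call required an adjusted p no greater than 0.05, and 57 were not called. The share called was 52.1%, where 73.2% of all 10551 genes tested were called, 48.5% higher and 24.7% lower. The median log2 fold change of the members was -0.02 (-0.047 without MMK-1 replicate 3 and -0.00045 without MMK-1 replicate 1), whereas that of all genes tested was 0.13, and 90 of the 119 members lay below the latter. When libraries were scaled to a common upper quartile, the median of all genes became -0.0036, with 17 members higher and 67 lower, against 34.8% and 37% of all genes. The members lay below the median gene on both scales (-0.18 with upper-quartile scaling), while the split into higher and lower depended on the scale. It moved with gene properties too: 34 members were higher and 36 lower of 118 once a GC trend was removed (51.2% and 25.2% of all genes), and 53 higher and 23 lower once a trend on gene length was removed (48.3% and 24.9%). Without MMK-1 replicate 3, 34 were higher and 43 lower (49.2% and 27.9%).

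Changes of at least 2-fold were few. ATP8, ND2, ND3, ND6 and Ndufa4l2 rose and Atp6v0e2 fell by this measure with p of at most 0.05. Of all genes tested, 3.39% passed it upward and 3.65% downward. Ndufa4l2 and Atp6v0e2 reached the mean needed for the test only through the group where each is high. The 5 that rose became ATP8 and Ndufa4l2 alone without MMK-1 replicate 1 or with the GC trend removed, and ATP8, ND6 and Ndufa4l2 without MMK-1 replicate 2 or with upper-quartile scaling. Atp6v0e2 did not pass without control replicate 2 or MMK-1 replicate 3. The 2 groups did not overlap for 62 of the 119 members, 31 above and 31 below the controls, against 76.8% of all genes tested (50.5% above and 26.3% below).

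**Figure D1:**
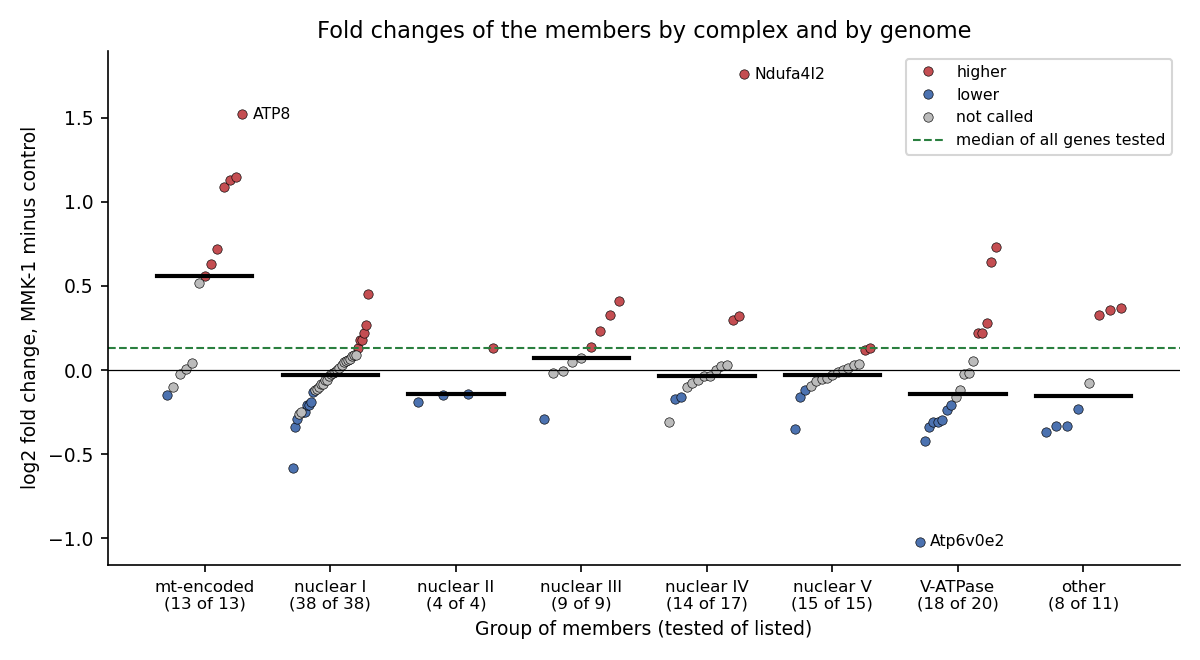
Log2 fold change (MMK-1 minus control) of each tested member, with 1 point a gene, grouped by complex and genome. Red and blue points passed an adjusted p of 0.05 in limma, black bars are group medians and the dashed line is the median of all genes tested (0.13). The mitochondrially encoded genes spread from -0.15 to 1.52, whereas the nuclear subunits of complexes I to V lie around a median of -0.021.

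The mitochondrially encoded genes changed unequally. Of the 13, MMK-1 raised ND1, ND2, ND3, ND6, COX2, ATP6 and ATP8 and lowered ND4, and ND4L, ND5, CYTB, COX1 and COX3 were not called. The share called was 61.5%, against 73.2% of all genes. With upper-quartile scaling 5 were higher and 2 lower (34.8% and 37% of all genes). With the length trend removed 9 were higher and 0 lower (48.3% and 24.9%). Their median log2 fold change was 0.56. Their mRNAs took 6.42%, 6.45% and 6.37% of all fragments in the controls and 7.91%, 7.89% and 6.24% with MMK-1. Replicates 1 and 2 of MMK-1 were thus above the controls in this share, and replicate 3 was below them.

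ND1 and ND2 encode membrane subunits of complex I and lie next to each other, at chrM:2751-3707 and chrM:3914-4951. ND1 was at 7359, 7629 and 7432 FPKM in the controls and 13336, 12982 and 8865 FPKM with MMK-1. All MMK-1 libraries exceeded all controls, with replicate 3 the lowest (log2 fold change 0.63, SE 0.136, adjusted p = 0.0028 in limma). ND2 was at 3577, 3752 and 3697 FPKM in the controls and 11530, 10067 and 4110 FPKM with MMK-1. Its libraries of replicates 1 and 2 were 3.14 and 2.74 times the control mean and that of replicate 3 was 1.12 times (log2 fold change 1.09, SE 0.322, adjusted p = 0.014 in limma). Neither gene has a listed copy, and the exact permutation p of each was 0.1, the smallest that 3 against 3 libraries allow.

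ND3, a further membrane subunit of complex I, was at 38, 32.7 and 40.3 FPKM in the controls and 112, 124 and 39.1 FPKM with MMK-1. Replicate 3 fell within the control range while replicates 1 and 2 were 3.04 and 3.35 times the control mean (log2 fold change 1.13, SE 0.366, adjusted p = 0.021 in limma, and 0.054 with upper-quartile scaling). ND6 is the only protein-coding gene on the light strand of the mitochondrial genome. It was at 1.85, 1.39 and 1.86 FPKM in the controls, from 27 to 36 fragments, and at 7.22, 3.97 and 4.2 FPKM with MMK-1, from 74 to 133 fragments. In this gene all MMK-1 libraries were well above the controls, replicate 3 included (log2 fold change 1.15, SE 0.176, adjusted p = 0.00036 in limma). ND5 and ND6 overlap by 14 bases on opposite strands, and whether the counting used strand is not given in the sources used here.

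The other complex I genes of the mitochondrial genome moved little. ND4 was at 2820, 2977 and 3031 FPKM in the controls and 2653, 2782 and 2500 FPKM with MMK-1, the only mitochondrial gene that was called lower (log2 fold change -0.15, SE 0.051, adjusted p = 0.022 in limma). That call was lost with the total taken without mitochondrial transcripts (adjusted p = 0.15 in limma), with a trend on gene length removed (adjusted p = 0.39 in limma), and when control replicate 2, control replicate 3 or MMK-1 replicate 1 was left out (adjusted p = 0.085, 0.08 and 0.054 in limma). ND5 was at 4025, 4062 and 4065 FPKM against 4336, 4318 and 3398 FPKM, so that replicate 3 lay below and the other MMK-1 libraries above the controls. ND4L, which is copied whole on chromosome 1, lay between 41.5 and 57 FPKM in all libraries, with groups that overlapped.

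CYTB, the mitochondrial subunit of complex III, was at 7639 to 7745 FPKM in the controls and 8197, 8448 and 7171 FPKM with MMK-1 (adjusted p = 0.553 in limma). It was called higher with the length trend removed (0.16, adjusted p = 0.048 in limma) and lower with the GC trend removed (-0.17, adjusted p = 0.002 in limma). COX1, the catalytic subunit of complex IV, had the highest level of all members. It was at 21326, 21065 and 20719 FPKM in the controls and 21211, 21808 and 20277 FPKM with MMK-1, and these ranges overlapped (log2 fold change 0.0037, SE 0.0442, adjusted p = 0.944 in limma). Its sign turned with the scale, to -0.16 with upper-quartile scaling (adjusted p = 0.013 in limma). With the length trend removed it was called higher, at 0.11 (adjusted p = 0.039 in limma).

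COX2 and COX3, the other core subunits of complex IV, are copied whole. COX2 was at 286, 277.5 and 243 FPKM in the controls and 483, 557 and 319 FPKM with MMK-1, all of them above the controls (log2 fold change 0.72, SE 0.175, adjusted p = 0.0054 in limma). COX3 was at 140.4, 154 and 103 FPKM in the controls and 145, 399.5 and 114.5 FPKM with MMK-1. Only MMK-1 replicate 2 stood out, and the gene was not called (adjusted p = 0.261 in limma). The log2 fold change of COX3 was 0.52 with all libraries and -0.022 without that library.

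ATP8 and ATP6 encode membrane subunits of ATP synthase and share 43 bases. ATP8 was at 23.7, 18.9 and 21.9 FPKM in the controls and 99.9, 95.4 and 26.5 FPKM with MMK-1. Replicates 1 and 2 were at 4.65 and 4.43 times the control mean, and replicate 3 was only just above the controls at 1.23 times (log2 fold change 1.52, SE 0.427, adjusted p = 0.011 in limma). ATP6 was at 150.4, 150.4 and 134 FPKM against 242, 262 and 152 FPKM, with replicate 3 again close to the controls (log2 fold change 0.56, SE 0.175, adjusted p = 0.018 in limma, and 0.093 with upper-quartile scaling).

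**Figure D2:**
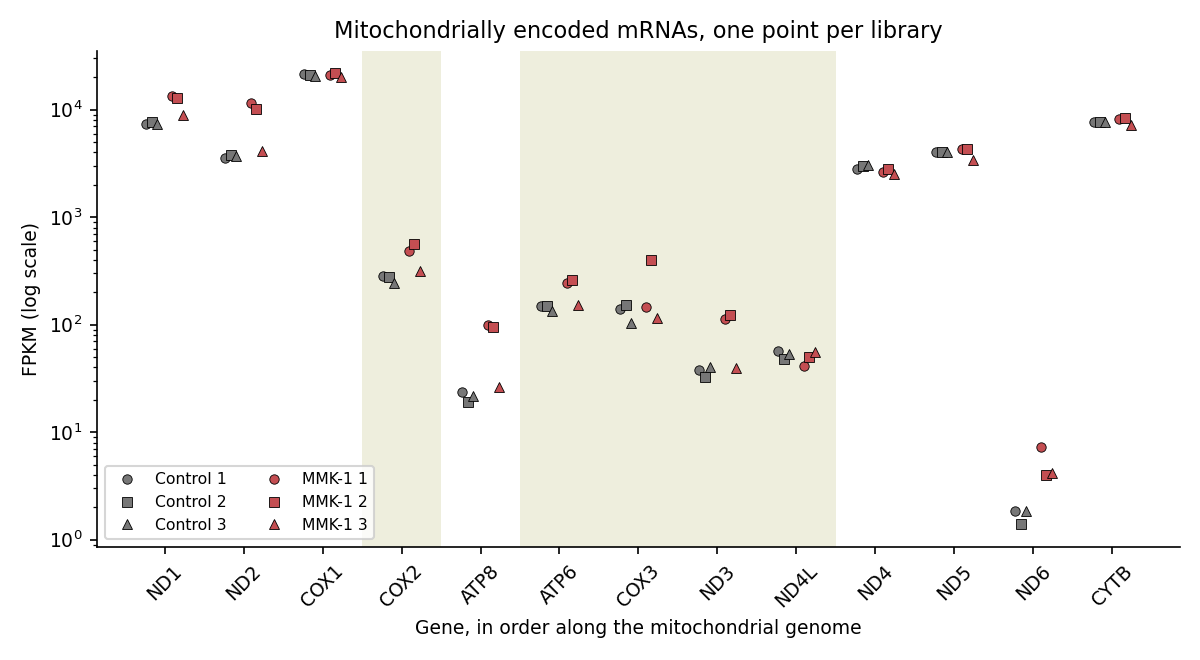
FPKM of the 13 mitochondrially encoded mRNAs (log axis) in order along the mitochondrial genome, with 1 point a library, grey for control and red for MMK-1, and circles, squares and triangles for replicates 1, 2 and 3. Shaded genes are copied over their whole length on chromosome 1. MMK-1 replicate 3 (red triangles) lies near the controls in ND2, ND3 and ATP8, where the other MMK-1 libraries are 2.74 to 4.65 times the control mean.

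These results rested in part on single libraries. Without MMK-1 replicate 3, 9 mitochondrial genes were higher, where 49.2% of all genes tested were. They now held CYTB and ND5 (log2 fold changes 0.11 and 0.10, adjusted p = 0.0046 and 0.006 in limma), and the median of the mitochondrial genes rose to 0.82. Without MMK-1 replicate 1 or replicate 2, ND3 and ATP6 were no longer called (adjusted p = 0.059 to 0.069 in limma), and ND2 and ATP8 remained higher with log2 fold changes of 0.81 and 1.20 without replicate 1 and of 0.91 and 1.23 without replicate 2. ND3 also lost its call without control replicate 2 and ATP6 without control replicate 3 (adjusted p = 0.059 and 0.062 in limma). ND1, ND2, ND6, COX2 and ATP8 were called higher in each of the fits that left out 1 library.

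Base composition moved with these results. The GC content of the mitochondrial genes was 31.9% to 41.1%, and that of the tested nuclear genes 32.9% to 72.8%. MMK-1 replicates 1 and 2 exceeded replicate 3 by a median of 0.57 on the log2 scale over the mitochondrial genes and by 0.25 over the nuclear genes of like GC content. Those nuclear genes had a median of 0.37 for the log2 fold change between the groups. After a trend on GC content was removed from each library, ND1, ND2, ND3, ND6, COX2, ATP6 and ATP8 stayed higher, with log2 fold changes of 0.36, 0.76, 0.70, 0.76, 0.49, 0.23 and 1.05, and ND4, ND5, CYTB and COX1 were lower. The part of base composition in these differences was not tested further.

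The 80 tested nuclear subunits of complexes I to V changed less, with 16 higher, 18 lower and 46 not called and a median of -0.021. Their share called was 42.5%, against the 73.2% of all genes. The split turned with the processing. With upper-quartile scaling 6 were higher and 48 lower, against 34.8% and 37% of all genes. With the length trend removed 36 were higher and 10 lower of 79, against 48.3% and 24.9%. Without MMK-1 replicate 3, 28 were lower, against 27.9% of all genes. Their summed level was 15659 to 16579 FPKM in the controls and 15474 to 16616 FPKM with MMK-1, and these ranges overlapped. Nuclear members of all kinds took 1.89%, 1.93% and 1.95% of fragments in the controls and 1.88%, 1.86% and 2.01% with MMK-1.

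Nuclear complex I had 6 genes higher, 9 lower and 23 not called of 38, a share called of 39.5% beside 73.2% of all genes. The counts became 1 higher and 21 lower with upper-quartile scaling (34.8% and 37% of all genes) and 16 higher with the length trend removed (48.3%). Ndufb3, an accessory subunit of the membrane arm, fell most. It was at 77, 76.5 and 78.6 FPKM in the controls and 51.8, 49.2 and 53.6 FPKM with MMK-1, well apart (log2 fold change -0.58, SE 0.0429, adjusted p = 4.3e-06 in limma). Ndufb10 and Ndufb7, further accessory subunits, followed at -0.34 and -0.29 (adjusted p = 0.00016 and 0.00096 in limma). Ndufc1 rose most, from 31.9, 36.7 and 46.4 FPKM to 50, 52.5 and 54.4 FPKM, and its control libraries were more widely spread than those of MMK-1 (log2 fold change 0.45, SE 0.114, adjusted p = 0.0062 in limma). With upper-quartile scaling it was at 0.30 and was not called.

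Smaller changes in complex I went both ways. Ndufs8, a core subunit, and Ndufs6 rose by 0.27 and 0.22 on the log2 scale. The further core subunits Ndufs7 and Ndufv1 were at -0.21 and -0.13 and were called lower. Ndufs6 was no longer called with upper-quartile scaling, at 0.058. The most abundant nuclear genes of the complex were Ndufa6 and Ndufb9. Ndufa6 fell from 461, 480 and 480 FPKM to 418.5, 402 and 410.3 FPKM (log2 fold change -0.21, SE 0.0376, adjusted p = 0.0011 in limma), and Ndufb9, at 200.9 to 238 FPKM in all libraries, was not called. Ndufb4b and Ndufb4c, named as copies of Ndufb4, lay between 1.71 and 3.85 FPKM with groups that overlapped, and near-identical copies of this kind can share fragments with their parent gene.

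Complex II, succinate dehydrogenase, is wholly nuclear and also serves the citric acid cycle. All of its 4 genes were called with all libraries, 1 higher and 3 lower, where 73.2% of all genes tested were called. Sdha, the flavoprotein, was at 189.5, 190.1 and 191 FPKM in the controls and 199.6, 207.5 and 219 FPKM with MMK-1 (log2 fold change 0.13, SE 0.0423, adjusted p = 0.02 in limma). Sdhc, a membrane anchor, fell from 224, 233 and 236 FPKM to 204, 194 and 208 FPKM (log2 fold change -0.19, SE 0.0426, adjusted p = 0.0029 in limma). The iron-sulfur subunit Sdhb and the second anchor Sdhd were lower at -0.15 and -0.14 (adjusted p = 0.03 and 0.022 in limma). Sdha lay at the median of all genes, and with upper-quartile scaling its value turned to -0.026 and was not called while the other genes stayed lower. Sdhb and Sdhd lost their calls after removal of the GC or the length trend. These calls also rested on single libraries: Sdha was not called when any 1 control library was left out (adjusted p = 0.056 to 0.069 in limma), and Sdhb and Sdhd were not called without control replicate 2, control replicate 3, MMK-1 replicate 1 or MMK-1 replicate 2 (adjusted p = 0.066 to 0.12 in limma). Sdhc was called lower in each of these fits.

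Complex III had 4 genes higher and 1 lower of 9, a share called of 55.6% beside 73.2% of all genes, with a median of 0.071. There were 2 higher and 4 lower with upper-quartile scaling (34.8% and 37% of all genes) and 7 higher with the length trend removed (48.3%). Without MMK-1 replicate 3, 2 were lower (27.9%). Uqcr10, a small accessory subunit, was at 205, 207 and 219.7 FPKM in the controls and 273, 270.0 and 299.7 FPKM with MMK-1, without overlap (log2 fold change 0.41, SE 0.0516, adjusted p = 0.0001 in limma). Cyc1, the cytochrome c1 that passes electrons to cytochrome c, rose from 188, 187 and 186 FPKM to 230.3, 231.5 and 246 FPKM (log2 fold change 0.33, SE 0.0396, adjusted p = 7.6e-05 in limma). Uqcrfs1, the Rieske iron-sulfur protein, rose by 0.23, which was not called with upper-quartile scaling (0.068). Uqcrh, the hinge protein and the most abundant nuclear gene of this complex, went the other way, from 449, 498 and 497 FPKM to 379, 391.5 and 409 FPKM (log2 fold change -0.29, SE 0.0522, adjusted p = 0.00097 in limma). Uqcr11 was at 251 to 277 FPKM in all libraries and was not called. The median of complex III was -0.087 after upper-quartile scaling.

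In complex IV, 14 of 17 nuclear genes were tested, and 3 were higher, 2 lower and 9 not called, a share called of 35.7% beside 73.2% of all genes. The lower count was 5 without MMK-1 replicate 3 (27.9% of all genes) and 9 with upper-quartile scaling (37%). It was 4 with the GC trend removed (25.2%) and 0 with the length trend removed (24.9%), which also left 7 higher (48.3%). The largest rise was that of Ndufa4l2, a paralogue of Ndufa4 known as a target of hypoxia signalling. It had 3, 10 and 8 fragments in the controls and 104, 137 and 129 with MMK-1, or 0.0695, 0.231 and 0.186 FPKM against 2.54, 3.31 and 3.02 FPKM. The gene reached the mean needed for the test only through the MMK-1 group, where it is high. The groups lay far apart, with means in a ratio of 18.2 (log2 fold change 1.76 on the log2(FPKM + 1) scale, SE 0.0897, adjusted p = 4.5e-07 in limma). Ndufa4 itself, a subunit of complex IV despite its name, stood at 366 to 389 FPKM in the controls and 325 to 347 FPKM with MMK-1 and fell by 0.17 on the log2 scale (SE 0.0417, adjusted p = 0.0061 in limma).

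Cox6a2 and Cox6b2, known from muscle and testis, did not reach the mean of 1 FPKM. Cox6a2 had 3, 4 and 8 fragments in the controls and 43, 28 and 30 with MMK-1, and Cox6b2 had 4, 2 and 12 against 32, 35 and 46. All MMK-1 libraries exceeded all controls in both (exact two-sided permutation p = 0.1 each, the smallest possible), with ratios of means of 6.98 and 6.47. When every gene above 0 was fitted, both were called higher (adjusted p = 0.0013 and 0.0018 in limma). The widely expressed Cox6a1 rose from 429.9, 475 and 479.7 FPKM to 568, 541 and 589.6 FPKM (log2 fold change 0.30, SE 0.0538, adjusted p = 0.001 in limma), whereas Cox6b1 was at 428 to 496 FPKM in all libraries and was not called.

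**Figure D3:**
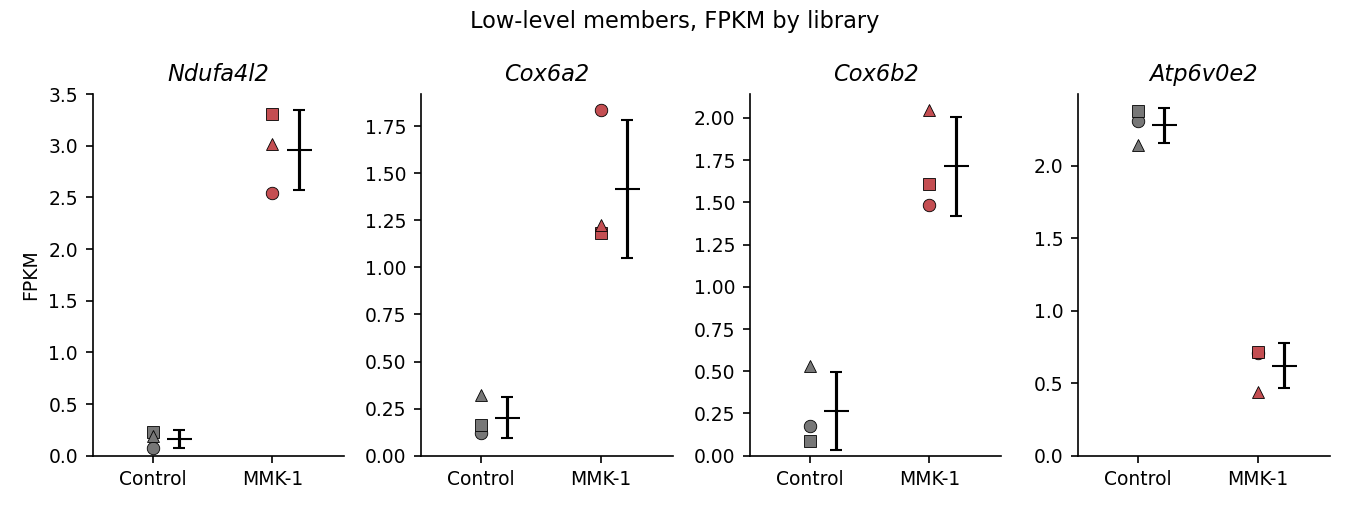
FPKM of Ndufa4l2, Cox6a2, Cox6b2 and Atp6v0e2 in each library (circles, squares and triangles for replicates 1, 2 and 3), with the mean and SD of each group beside the points (n = 3) and each axis starting at 0. The groups do not overlap in any of these genes, and the highest level is 3.31 FPKM.

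Cox7a1, the heart and muscle form, was at 18.9, 25.1 and 28.1 FPKM against 18.2, 17.9 and 20.8 FPKM, with groups that overlapped and no call. Cox7a2, Cox7a2l and Cox7b were at 126 to 149, 224 to 245 and 184 to 217 FPKM over all libraries and were not called. The muscle form Cox8b had 0 fragments in every library, which allows up to 3 fragments in each, while Cox8a was at 540.1 to 610 FPKM. Cox5a, which faces the matrix, rose by 0.32 (adjusted p = 0.00062 in limma), and Cox7c fell by 0.16, from 585, 591 and 586 FPKM to 522, 509 and 549.9 FPKM (adjusted p = 0.0069 in limma). Cox4i1, the most abundant nuclear gene of the complex, was at 825 to 844 FPKM in the controls and 747 to 817 FPKM with MMK-1. It lay below the controls in all MMK-1 libraries and missed the threshold (log2 fold change -0.10, adjusted p = 0.06 in limma).

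Complex V had 2 genes higher, 3 lower and 10 not called of 15, a share called of 33.3% beside 73.2% of all genes. No gene was higher without control replicate 1 or 2 or with upper-quartile scaling, 1 was higher without control replicate 3 and 5 with the length trend removed (48.3% of all genes). The lower count was 5 without MMK-1 replicate 3 and 11 with upper-quartile scaling, where 34.8% of all genes were higher and 37% lower. Atp5c1, the central stalk subunit γ that turns within the catalytic head, was at 315, 314 and 316 FPKM in the controls and 239, 241 and 262 FPKM with MMK-1, clearly apart (log2 fold change -0.35, SE 0.0444, adjusted p = 0.00012 in limma). Its partners in the head differed from it: Atp5b, the catalytic β subunit and the most abundant nuclear member, was at 1172, 1169 and 1152 FPKM against 1225, 1231 and 1345 FPKM (log2 fold change 0.12, SE 0.0456, adjusted p = 0.039 in limma), and Atp5a1, the α subunit, was at 705 to 766 FPKM in all libraries and was not called. Atp5j rose by 0.13, and Atp5l and Atp5h fell by 0.16 and 0.12. The call of Atp5h was lost when any 1 library other than MMK-1 replicate 3 was left out (adjusted p = 0.068 to 0.12 in limma), with the GC trend removed (0.053), as TPM (0.073) and with the total taken without mitochondrial transcripts (0.12). Atp5b was not called when any 1 control library was left out (adjusted p = 0.072 to 0.11 in limma). The rises of Atp5b and Atp5j turned to -0.038 and -0.023 with upper-quartile scaling and were not called. The paralogues Atp5g1, Atp5g2 and Atp5g3, which encode the same ring subunit c, had log2 fold changes of 0.012, -0.093 and -0.031 and were not called. Atp5g1 lay between 123 and 138 FPKM, Atp5g2 between 218 and 256 FPKM and Atp5g3 between 333.5 and 381.5 FPKM.

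The V-ATPase pumps protons with a peripheral V1 domain that splits ATP and a membrane V0 domain. Of 18 tested genes, 5 were higher and 8 lower, a share of 72.2% close to the 73.2% of all genes, and the median was -0.14. With upper-quartile scaling 3 were higher and 12 lower, against 34.8% and 37% of all genes. Tcirg1, the a3 isoform of the V0 subunit a, was at 9.52, 9.14 and 9.95 FPKM in the controls and 15.9, 15.8 and 17.9 FPKM with MMK-1 (log2 fold change 0.73, SE 0.0594, adjusted p = 7.2e-06 in limma). Atp6v0a1 and Atp6v0a2, isoforms of the same subunit, were lower. Atp6v0a1 fell from 18.5, 18.1 and 17.7 FPKM to 12.8, 12.6 and 14.3 FPKM (log2 fold change -0.42, SE 0.0543, adjusted p = 0.00012 in limma), and Atp6v0a2 fell by 0.21 (adjusted p = 0.00084 in limma). Groups of each of these genes lay apart.

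Atp6v0e2, an isoform of the small V0 subunit e, showed the largest fall of the tested members, which it joined only through the control group, where it is high. It was at 2.31, 2.38 and 2.14 FPKM in the controls and 0.706, 0.713 and 0.440 FPKM with MMK-1, from 147 to 164 fragments against 30 to 47 (ratio of means 0.272, log2 fold change -1.02, SE 0.0815, adjusted p = 6.6e-06 in limma). Atp6v0e, its abundant paralogue, was at 64.7, 71.2 and 67 FPKM against 59, 61.6 and 66 FPKM and was not called (log2 fold change -0.12, adjusted p = 0.076 in limma). Atp6v0d1, the V0 subunit that joins the ring to the stalk, fell from 65.4, 69 and 68.1 FPKM to 53.6, 50.6 and 55.5 FPKM (log2 fold change -0.34, SE 0.0462, adjusted p = 0.00018 in limma).

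In the V1 domain, Atp6v1g1, a stator subunit, rose from 69.3, 73.5 and 75 FPKM to 116, 122 and 104 FPKM (log2 fold change 0.64, SE 0.0613, adjusted p = 2e-05 in limma). Its paralogue Atp6v1g2, at 0.839 to 1.36 FPKM, was not called. Atp6v1b2, the B subunit of the catalytic head, and the stalk genes Atp6v1e1 and Atp6v1c1 fell by 0.31, 0.30 and 0.24 (adjusted p = 8.3e-05, 0.00043 and 0.0028 in limma). Atp6v1b1 had no fragment in any library, and Atp6v1c2 had 1 fragment in each of 2 libraries. Atp6v0b, Atp6v1f and the accessory protein Atp6ap1 rose by 0.28, 0.22 and 0.22, and the last 2 were not called with upper-quartile scaling.

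**Figure D4:**
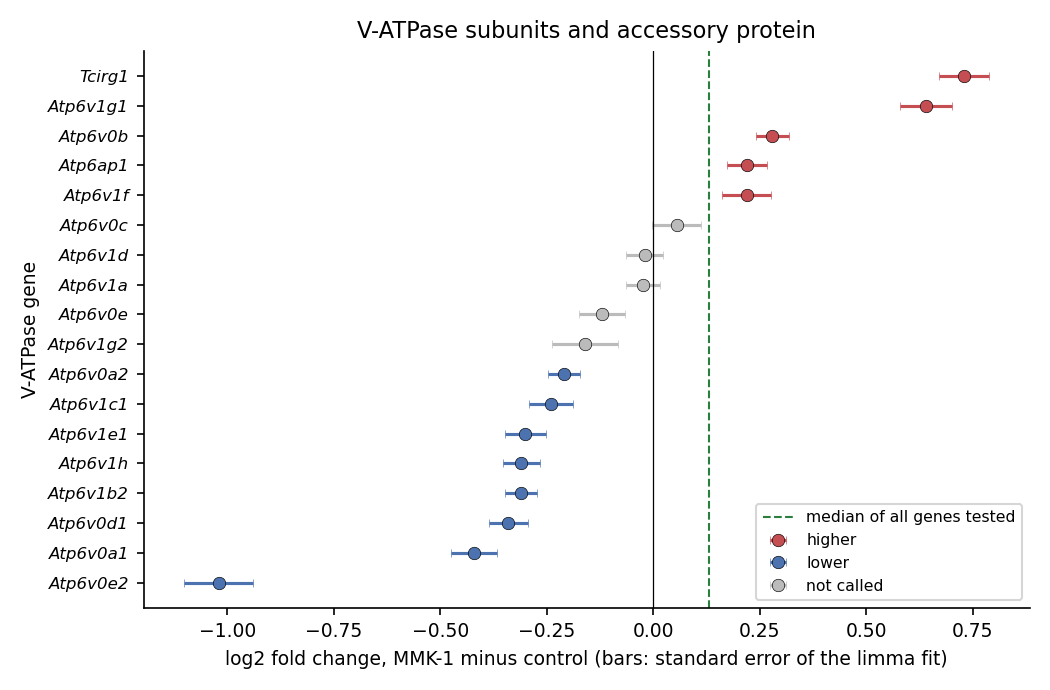
Log2 fold change of the 18 tested V-ATPase genes with the standard error of the limma fit (bars). Red and blue points passed an adjusted p of 0.05, the dashed line is the median of all genes tested, and Tcirg1 at 0.73 and Atp6v0a1 at -0.42, isoforms of the same subunit, lie on opposite sides.

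The other 11 members of the pathway are cytochrome c, factors that build complex IV, pyrophosphatases and P-type proton pumps. Cycs, the somatic cytochrome c, rose from 33.2, 29.5 and 29.6 FPKM to 38.1, 39.9 and 41.5 FPKM (log2 fold change 0.36, SE 0.0568, adjusted p = 0.00041 in limma). The testis form Cyct had 4, 2 and 12 fragments in the controls and 1, 0 and 2 with MMK-1, with groups that overlapped at the highest MMK-1 library (exact two-sided permutation p = 0.2). Cox10 and Cox15, which make the heme A of complex IV, moved apart: Cox10 rose by 0.37 and Cox15 fell by 0.37 (adjusted p = 0.00022 and 6.4e-05 in limma). The copper factors Cox11 and Cox17 also differed in sign, at 0.33 and -0.23 (adjusted p = 0.00094 and 0.0079 in limma).

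Among the pyrophosphatases, the cytosolic Ppa1 fell from 143, 146 and 144.5 FPKM to 113, 113 and 119.9 FPKM (log2 fold change -0.33, SE 0.0398, adjusted p = 9.2e-05 in limma) and Lhpp fell by 0.33 (adjusted p = 0.00029 in limma), whereas the mitochondrial Ppa2 was not called. Atp4a, the gastric proton pump, was at 0.594 to 0.773 FPKM in the controls and 0.894 to 1.12 FPKM with MMK-1 and did not reach the mean needed for the test. Atp12a had no fragment in any library.

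RefSeq promoter windows of GRCm38.p6, which span the start of a gene and lie mostly upstream of it, were found for 91 members. The core motif of the factor NRF1, a run of letters that reads alike on both strands, stood in 6 of them (6.59%), against 2.52% of the 8572 tested genes with a window and 1.07% of all 27025 genes with one. CCGGAAG, read on either strand and named for ETS factors such as GABPA, stood in 24.2% of the members, 22.1% of the tested genes and 9.93% of all genes. CCATCTT, named for YY1, stood in 14.3%, 8.87% and 7.28%. These are matches of letters only. The members that hold the first motif are Atp5g2, Atp5k, Atp6v1e1, Cox6a1, Ndufa11 and Uqcrc1, of which Cox6a1 was higher, Atp6v1e1 lower and the other 4 not called.
The windows of the 2 called genes are shown, each with the NRF1 core motif and then CCGGAAG or its reverse complement in capitals, because they carry the same letters and moved in opposite directions.
Cox6a1, chr5:115348909-115349208, minus strand: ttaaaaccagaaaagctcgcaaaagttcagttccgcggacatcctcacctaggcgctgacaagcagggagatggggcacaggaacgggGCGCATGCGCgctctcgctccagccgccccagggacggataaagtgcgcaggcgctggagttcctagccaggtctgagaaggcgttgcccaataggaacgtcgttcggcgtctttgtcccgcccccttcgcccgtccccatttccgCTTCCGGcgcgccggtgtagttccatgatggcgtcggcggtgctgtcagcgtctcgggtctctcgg
Atp6v1e1, chr6:120822649-120822948, minus strand: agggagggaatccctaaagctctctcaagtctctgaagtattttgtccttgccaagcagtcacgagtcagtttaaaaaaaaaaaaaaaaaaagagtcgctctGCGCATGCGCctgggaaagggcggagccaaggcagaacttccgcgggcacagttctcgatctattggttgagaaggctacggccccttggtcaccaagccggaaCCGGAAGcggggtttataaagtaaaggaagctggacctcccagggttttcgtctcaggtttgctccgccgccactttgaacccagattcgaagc

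Genes around the respiratory chain were taken from lists of assembly factors, mitochondrial gene expression and neighbouring metabolism. Factors of mitochondrial RNA processing and stability were mostly higher, 11 of 15, with 1 lower and a median of 0.24, where 48.5% of all genes tested were higher and their median was 0.13. Trmt10c and Prorp, subunits of the mitochondrial RNase P that frees the mRNAs from their long transcripts, rose by 0.75 and 0.49 (adjusted p = 0.00022 and 2.3e-05 in limma), whereas Hsd17b10, the remaining subunit of that enzyme, fell by 0.25 (adjusted p = 0.0033 in limma). Of the 7 tested transcriptional regulators of mitochondrial genes, 6 were higher, with Pprc1, a coactivator of the PGC-1 family, at 0.68 and Yy1 at 0.50, and Esrra, an orphan nuclear receptor, was lower at -0.28. With upper-quartile scaling these lists had 7 of 15 and 4 of 7 genes higher, against 34.8% of all genes, and medians of 0.094 and 0.30.

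Replication and transcription of mitochondrial DNA had 8 genes higher and 3 lower of 15 tested, a share called of 73.3% beside the 73.2% of all genes. With upper-quartile scaling 5 were higher and 4 lower, against 34.8% and 37% of all genes. Mterf2, of the family of mitochondrial transcription termination factors, reached the mean needed for the test only through the controls, where it is high, and fell from 3.12 ± 0.209 to 0.996 ± 0.0918 FPKM (SD, n = 3, log2 fold change -1.04, adjusted p = 1.5e-06 in limma), and Polg2, the accessory subunit of the DNA polymerase, fell by 0.49. Mgme1, a nuclease of mitochondrial DNA, and Top1mt, the mitochondrial topoisomerase, rose by 0.62 and 0.51.

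Assembly factors moved both ways, and 48.5% of all genes tested were higher and 24.7% lower. With upper-quartile scaling the corresponding shares were 34.8% and 37%, and with the length trend removed 48.3% and 24.9%. Those of complex I had 5 genes higher and 6 lower of 17, which became 5 and 10 with upper-quartile scaling and 6 and 3 with the length trend removed. They were led by Ndufaf4, which rose from 8.13 ± 0.198 to 19 ± 4.45 FPKM (SD, n = 3, ratio of means 2.34, adjusted p = 0.00013 in limma), with Ndufaf2 at 0.51 and Dmac2 and Tmem126b at -0.49 and -0.44. Complex II had 2 of 4 higher, Sdhaf3 and Sdhaf1 at 0.68 and 0.54, and none was lower with all libraries. Without MMK-1 replicate 3, 3 were higher and 1 lower. Complex III had 1 higher and 4 lower of 6 (1 and 5 with upper-quartile scaling), with Uqcc2 at 0.58 and its partner Uqcc3 at -0.48 and Lyrm7 at -0.32. Complex IV had 4 higher and 9 lower of 18 tested, which became 2 and 11 with upper-quartile scaling and 6 and 5 with the length trend removed, with Higd1a and Cox14 at 0.38 and 0.33 and Coa4 and Cmc1 at -0.47 and -0.41. Complex V had 1 higher and 3 lower of 4 (1 and 1 with the length trend removed), with Tmem70 at 0.33 and Atpaf1 and Tmem242 at -0.51 and -0.25.

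In neighbouring metabolism, the citric acid cycle outside complex II had 4 genes higher and 6 lower of 14, a share called of 71.4% beside the 73.2% of all genes. It had 2 higher and 10 lower with upper-quartile scaling (34.8% and 37% of all genes), and 9 lower without MMK-1 replicate 3 (27.9%). Its isocitrate dehydrogenases Idh3a and Idh2 rose by 0.47 and 0.45, whereas Ogdh and Dlst, subunits of the 2-oxoglutarate dehydrogenase complex, fell by 0.54 and 0.49 (adjusted p = 1.1e-05 and 1.3e-05 in limma). Coenzyme Q synthesis had 3 higher and 4 lower of 13. These became 3 and 6 with upper-quartile scaling, 3 and 2 with the length trend removed and 5 and 3 with the GC trend removed. Coq10b and Pdss1 were at 0.81 and 0.51 and Coq4 and Coq8b at -0.43 and -0.28. Among cytochrome c, inner membrane carriers and uncouplers, 2 of 6 tested genes were higher and 2 lower (1 and 4 with upper-quartile scaling). The phosphate carrier Slc25a3 was at 0.17, the ADP/ATP carrier Slc25a4 at -0.42 and the ATP synthase inhibitor Atpif1 at -0.31. With upper-quartile scaling Slc25a3 was at 0.013 and was not called (adjusted p = 0.73 in limma).

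**Figure D5:**
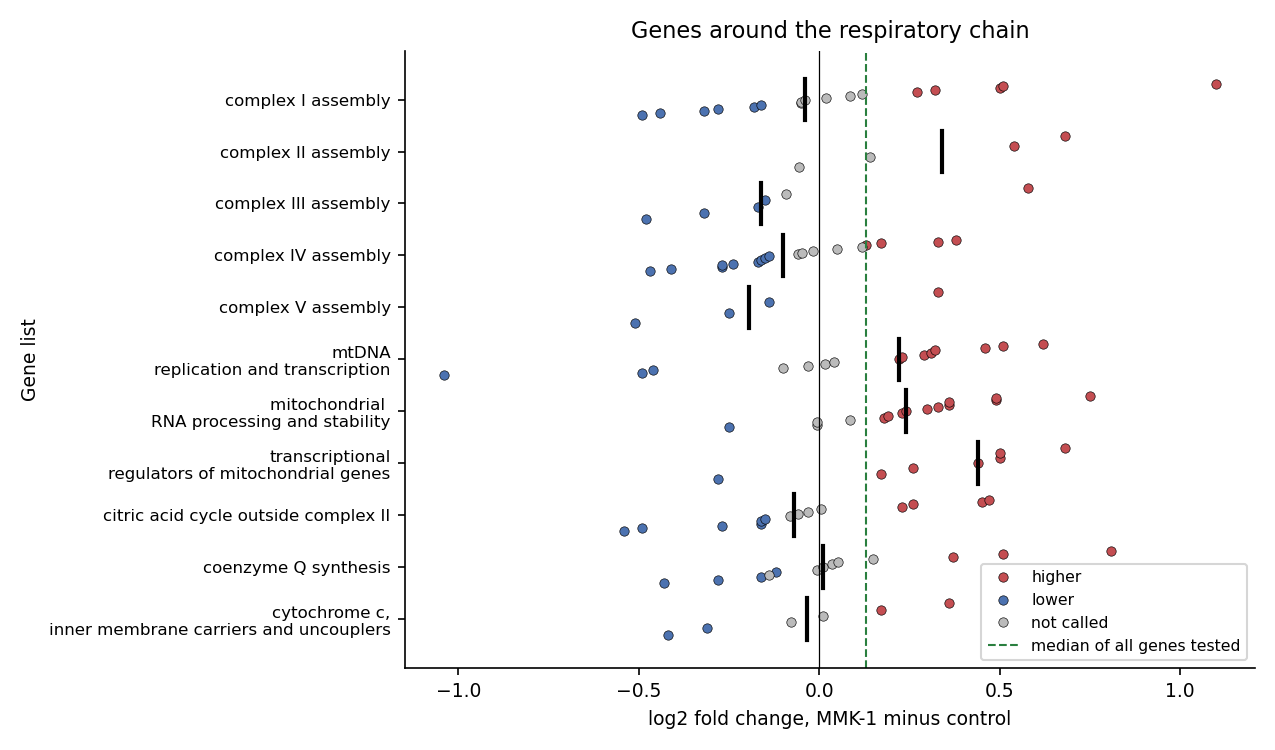
Log2 fold change of each tested gene in the 11 lists around the respiratory chain, with 1 point a gene, red and blue for an adjusted p of at most 0.05, black bars for list medians and the dashed line for the median of all genes tested. The medians of RNA processing (0.24), transcriptional regulators (0.44), complex II assembly (0.34) and replication and transcription of mitochondrial DNA (0.22) lie to the right of that line. Those of all other lists, with the assembly factors of complexes I, III, IV and V among them, lie to its left.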

How the data were processed

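RNA was sequenced from 6 libraries, 3 of control and 3 of MMK-1-treated organoids, as 150-bp paired-end reads. The authors deposited FPKM per gene. The submitters' processing notes name HISAT2, HTSeq, DESeq2, R 3.2.0 and mm10 without their roles, and the annotation, strand setting and treatment of multiply placed reads are not given in the sources used here. FPKM values were whole multiples of 1 fragment for 100% of genes above 0 (within 0.01 fragment), which gave fragments per gene and library totals. Intervals on such counts cover counting error only.

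Groups came from the treatment labels. limma 3.58.1 (trend, R 4.3.3) was fitted to log2(FPKM + 1) of 10551 genes that averaged 1 FPKM or more, with Benjamini-Hochberg adjustment over all of them, without a block. Fold changes on this scale understate those of low genes. A second rule required a 2-fold change together with an unadjusted p no greater than 0.05. Single genes were tested by exact two-sided permutation. GC content, lengths and pseudogenes came from GENCODE vM21 (GRCm38), which matched 98.7% of tested genes, and promoters from RefSeq. Local regression used a span of 0.3. The fit was checked on simulated libraries. Python 3.11.15 and matplotlib 3.10.9 were used for tables and plots.

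The members and lists were chosen with earlier results of these data known. Named genes are all mitochondrial and complex II members, and in each nuclear group the 3 largest called changes each way, the 2 highest levels, all changes of at least 2-fold and paralogous isoforms, and in each list the 2 largest called changes each way. Ndufs7, Ndufv1, Ndufb4b, Ndufb4c, Atp6ap1, Cyct, Cox17, Ppa2, Atp4a, Atp12a and the members with an NRF1 motif were named after their values were seen. Alternatives changed the scaling, unit, filter, pseudocount, test and libraries used.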

Additional observations from a re-analysis of the deposited data

How the results depend on the processing

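Of 1116 values for the 70 named members that were fitted, 1014 kept their side of the threshold. These 1014 include values whose sign turned while neither fit called the gene, such as COX3 without MMK-1 replicate 2 (-0.022). A further 15 turned their sign with a call in either fit. With upper-quartile scaling these were Atp5a1 (-0.16), Atp5b (-0.038), Atp5g1 (-0.15), Atp5j (-0.023), COX1 (-0.16) and Sdha (-0.026). Removing a trend on transcript length turned Atp5g3 (0.12), Atp5h (0.027), Cox7a2 (0.17), Cox7c (0.0068), Cox8a (0.14) and Uqcr11 (0.17), removing a trend on GC content turned COX1 (-0.18) and CYTB (-0.17), and ND5 (-0.021) ranged from -0.081 to 0.10 when single libraries were left out, with 0.10 without MMK-1 replicate 3. Members called higher and lower, 31 each, became 17 and 67 with upper-quartile scaling and 53 higher with the length trend removed. The median of nuclear subunits (-0.021) became -0.18, 0.041 and 0.093 with upper-quartile scaling, the total without mitochondrial transcripts and the length trend removed, and that of the V-ATPase (-0.14) became -0.26, -0.092 and -0.086, and -0.071 among genes of at least 5 FPKM. Of the 5 members at least 2-fold higher, 3 were left with upper-quartile scaling, 3 among genes of at least 5 FPKM and 2 with the GC trend removed, and 9 passed a fold of 1.5. Atp6v0e2, the 1 member at least 2-fold lower, missed that fold in 3 fits (total without mitochondrial transcripts, GC trend and length trend) and was not tested among genes of at least 5 FPKM, which left 0. Leaving out 1 library gave 26 to 34 members higher and 26 to 43 lower, 2 to 5 at least 2-fold higher (fewest without MMK-1 replicate 1, when ND2, ND3 and ND6 dropped out, and 3 without MMK-1 replicate 2) and 0 to 1 lower (0 without control replicate 2 or MMK-1 replicate 3), and medians of 0.41 to 0.82 for mitochondrial genes, -0.062 to 0.0098 for nuclear subunits and -0.18 to -0.12 for the V-ATPase, where the value without MMK-1 replicate 3 was -0.18. When every gene above 0 was fitted, ATP6, ATP8, ND2, ND3, ND4, Atp5b, Atp5h and Sdhb lost their calls (adjusted p = 0.085, 0.062, 0.078, 0.095, 0.16, 0.13, 0.055 and 0.07 in limma) at unchanged fold changes. The cause of these shifts was not tested. Over all genes tested, same-numbered libraries deviated little together (correlations 0.0253, -0.04 and 0.0279), and libraries did not all correlate best with their own number. Whether same-numbered libraries share mice cannot be told from these values. A replicate block gave 31 members higher and 36 lower. It narrowed the SE of each mitochondrial gene, in COX3 from 0.397 to 0.229 and in ND4L from 0.104 to 0.102. Counting error limits members with few fragments, such as ND6, Cox6a2, Cox6b2 and Cyct.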
